A study of Mus musculus with 4 samples.

Results

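The Notch pathway genes described here are 37 genes of receptors, ligands, fringes, receptor cleavage, nuclear complex, feedback and targets. They were chosen by symbol out of 29924 gene names on the array, with earlier results of these data known. They were carried by 50 of the 39429 probes, and each gene was read at its brightest probe. Tests were possible for 46 probes of 36 of the genes. Hes3, which encodes a basic helix-loop-helix (bHLH) repressor, was not well above background on any of the 4 arrays in either genotype and was not tested, and 3 further dim probes of Dll1, Maml2 and Maml3 were left out.

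The arrays compared RNA from E18.5 organs of Corti, the sensory epithelium of the cochlea, with and without loss of the T-box transcription factor gene Tbx2. Sox2-Tbx2LOF embryos had the genotype Sox2(creERT2);Tbx2(fl/fl), in which a recombinase that tamoxifen activates is expressed from the Sox2 locus, so that deletion was aimed at Sox2-expressing cells. Controls were Tbx2(fl/n.d.), that is, they carried a floxed Tbx2 allele with the other allele not determined in the labels, and had no Cre, so the knock-in at Sox2 was present in the mutants alone. Dams of both groups received 4 mg tamoxifen by mouth at E16.5, with progesterone according to the methods of the study, and all embryos were of the NMRI strain. Each pool held the basal parts of many organs of Corti of 1 sex, from which spiral ligament and spiral ganglia had been removed. There were 4 pools per genotype, set against each other on 4 dual-colour arrays. The Sox2-Tbx2LOF pool was labelled with Cy3 on arrays 1 and 3 and with Cy5 on arrays 2 and 4. Arrays 1 and 2 held female pools and arrays 3 and 4 male pools.

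Notch receptors are cut by ADAM10 and then by the gamma-secretase complex after they bind a ligand on a neighbouring cell, and the freed intracellular part joins RBPJ and a Mastermind-like protein on DNA to switch on genes of the Hes and Hey families. In the organ of Corti the pathway is known for lateral inhibition, in which developing hair cells present ligand and their neighbours become supporting cells. Jag1 and several Hes and Hey genes are expressed by supporting cells.

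The median signal of the arrays lay between 315 and 412 intensity units per channel, 70.4% to 75.2% of probes were well above background, and no spot was saturated. The log2 ratio of Sox2-Tbx2LOF over control of the targeted gene Tbx2 was -0.06, -0.24, -0.02 and -0.30 on arrays 1 to 4 at a probe that starts at base 3502 of the transcript (mean -0.15, limma adjusted p = 0.313). Whether this probe lies in the deleted part is not given in the sources used here. At the protein level, the study reports complete loss of TBX2 from recombined hair and supporting cells for the same tamoxifen day and stage, by immunofluorescence. Sox2 was at 0.31, 0.11, 0.27 and 0.25 (mean 0.23, limma adjusted p = 0.0876), and its levels did not overlap between genotypes. All 7 listed hair cell markers and all 7 listed supporting cell and prosensory markers were measurable, as were markers of neurons, glia, mesenchyme, endothelium, blood and melanocytes, so the pools held other cell types beside the sensory epithelium.

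Of the 36 Notch pathway genes tested, 1 differed between the genotypes at a limma adjusted p under 0.05, against 1.11% of all 21173 tested genes in either direction and 0.501% in the higher direction. That gene was Hey2, a bHLH transcriptional repressor and Notch target, which rose. No member also reached the 1.5-fold change that the study required, which 0.274% of all genes did. Unadjusted limma p-values were under 0.05 for 4 members, all with a mean above 0, namely Hey2, its relatives Heyl and Hey1, and the receptor gene Notch1. Over all genes 7.73% had such a p-value, and 3.83% had it in the higher direction. In pooled tissue, a change in the number of cells of a type and a change in RNA per cell cannot be told apart.

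**Figure D1:**
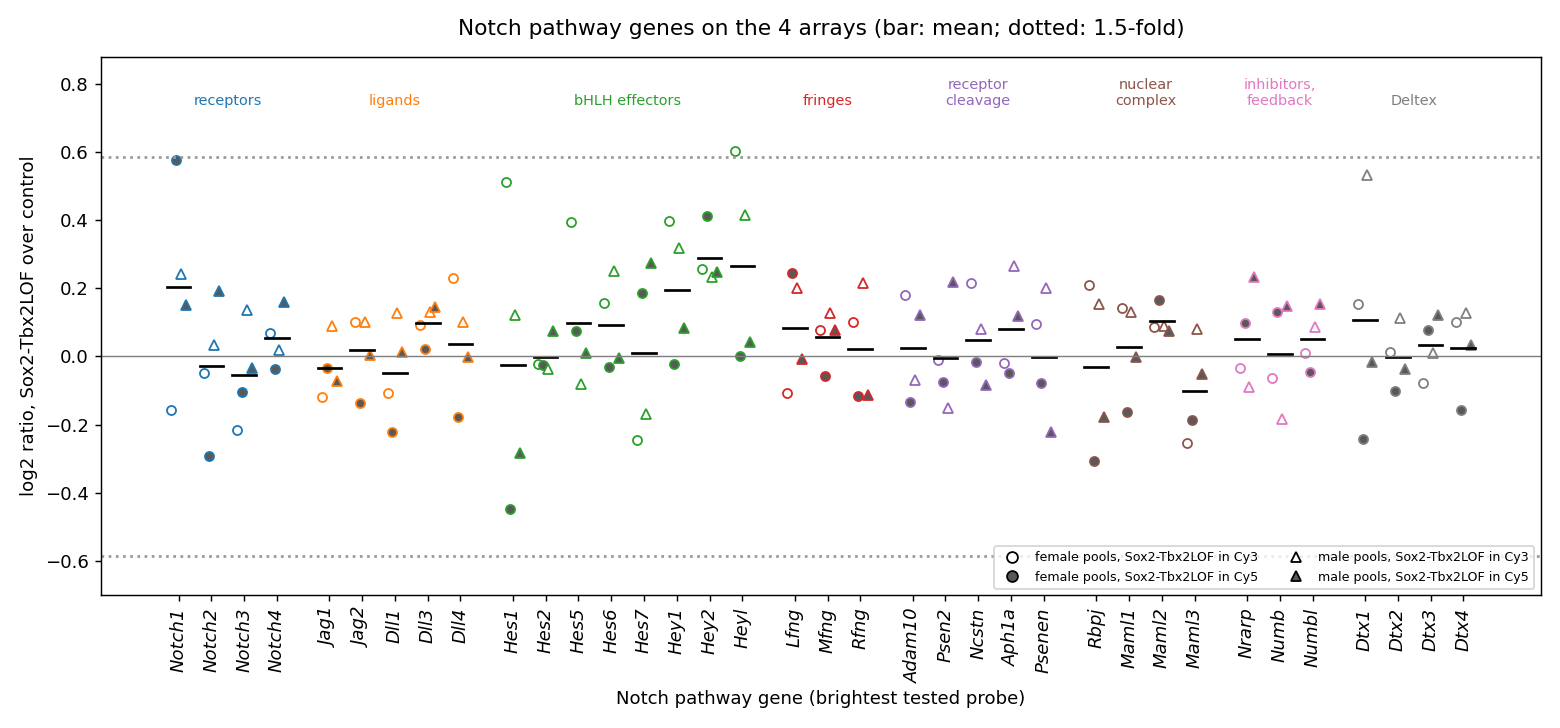
The log2 ratio of Sox2-Tbx2LOF over control (vertical axis) of the 36 tested Notch pathway genes, grouped by role, with 1 symbol per array and a bar for the mean. Symbols give sex and dye, dotted lines mark 1.5-fold, and 1 symbol, for Heyl on array 1, lies beyond a dotted line.

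The means of the members ran from -0.10 for Maml3 to 0.29 for Hey2 on the log2 scale. Of 36, 29 lay within 0.1 of 0, a share that was not counted over all genes. Ranked among all tested genes, Hes5 at 0.0996 was 6.4% from the top and Maml3 at -0.10 was 94.7% from it. The mean was above 0 for 25 members (69.4%) and below 0 for 11, where 51.5% of all genes were above 0. The median over members was 0.030, and that over all tested genes was 0.0017. The median absolute log2 ratio was 0.048 for the members and 0.034 for all genes.

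The ratio was above 0 on all 4 arrays for 4 members, Hey2, Heyl, Maml2 and Dll3, while 4.47% of all genes showed this. It was below 0 on all 4 arrays for none of the members, while 4.74% of all genes showed this. Levels of the 4 Sox2-Tbx2LOF and the 4 control pools did not overlap for 1 member, Hey2, while 2.73% of all genes had separate pools in either direction and 1.28% in the higher direction.

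**Figure D2:**
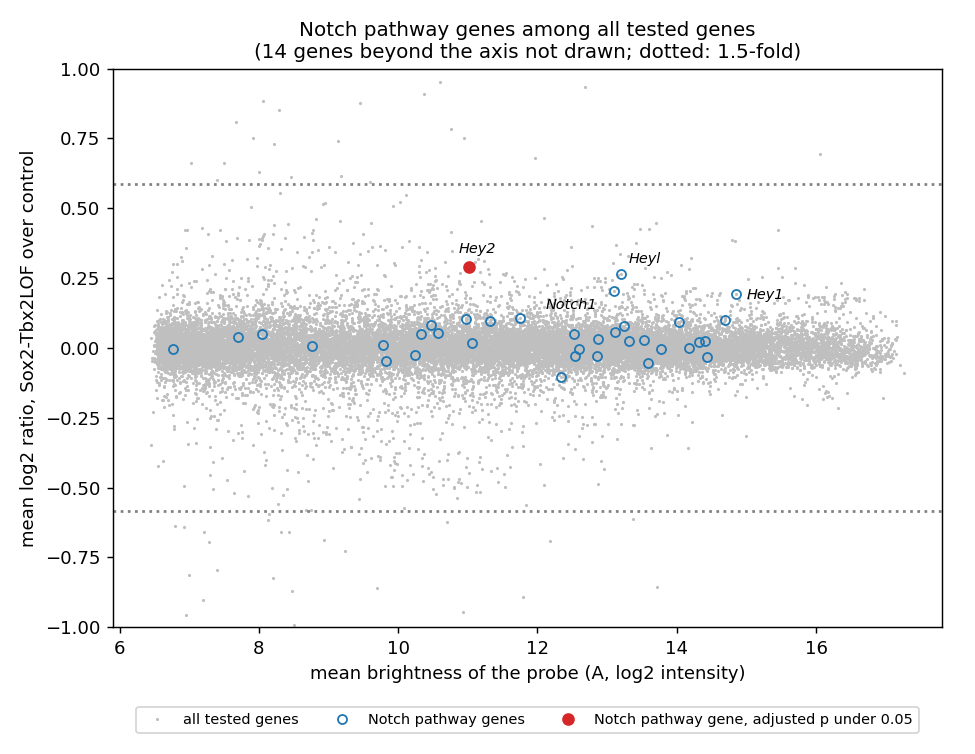
Mean log2 ratio of Sox2-Tbx2LOF over control (vertical axis) against the mean brightness of the probe in log2 intensity (horizontal axis) for all tested genes (grey) and the Notch pathway genes (circles). The members lie within the cloud of all genes, and Hey2, filled in red, is at 0.29 below the dotted line at 1.5-fold.

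The 2 largest mean ratios among the members were those of the bHLH genes Hey2 and Heyl, followed by the receptor gene Notch1 and the bHLH gene Hey1. Of 8 tested, 6 had a mean above 0 and 2 below, with a median of 0.10, and 1 passed the adjusted test. The promoters of Hey2, Hes5 and Lfng are shown because RBPJ, the DNA-binding partner of cleaved Notch, recognises a core of the letters GTGGGAA, and these targets carried the core in their promoters. The core was also found for Aph1a, Hes7 and Psen2, which are not shown and had lower mean log2 ratios of 0.08, 0.01 and -0.005. The sequences are from RefSeq for build GRCm38.p6 and run from 250 bases before the gene start to 10 bases after it, in the direction of the gene, with the core in capitals as GTGGGAA or, on the other strand, as TTCCCAC. The Hey2 promoter lies at chr10:30842774-30843033 on the minus strand, the Hes5 promoter at chr4:154960673-154960932 on the plus strand and the Lfng promoter at chr5:140607091-140607350 on the plus strand.
Hey2: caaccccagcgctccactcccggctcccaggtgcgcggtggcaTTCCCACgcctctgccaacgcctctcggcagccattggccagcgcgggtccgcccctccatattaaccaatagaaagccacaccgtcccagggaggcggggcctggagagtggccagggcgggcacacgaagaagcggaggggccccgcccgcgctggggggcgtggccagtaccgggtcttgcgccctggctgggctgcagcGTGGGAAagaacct
Hes5: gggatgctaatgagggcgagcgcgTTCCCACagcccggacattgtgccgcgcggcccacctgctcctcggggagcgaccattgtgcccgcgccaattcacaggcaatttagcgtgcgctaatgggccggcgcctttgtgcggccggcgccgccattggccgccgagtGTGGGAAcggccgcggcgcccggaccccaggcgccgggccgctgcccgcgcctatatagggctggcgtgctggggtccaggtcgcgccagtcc
Lfng: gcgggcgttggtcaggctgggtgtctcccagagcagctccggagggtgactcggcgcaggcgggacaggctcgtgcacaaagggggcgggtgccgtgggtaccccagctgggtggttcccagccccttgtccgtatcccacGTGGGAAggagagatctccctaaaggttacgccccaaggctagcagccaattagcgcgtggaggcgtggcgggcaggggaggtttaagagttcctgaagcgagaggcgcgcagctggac
The first bases of the cores lay 207 and 4 bases before the start of Hey2, 226 and 83 bases before that of Hes5, and 109 bases before that of Lfng.

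Hey2 levels were 11.02, 11.25, 11.21 and 11.19 in the Sox2-Tbx2LOF pools of arrays 1 to 4 and 10.77, 10.83, 10.97 and 10.94 in the control pools, as normalized log2 intensity. Every Sox2-Tbx2LOF pool was above every control pool. The log2 ratio on the arrays was 0.26, 0.41, 0.23 and 0.25 (mean 0.29 ± 0.08, SD, n = 4), which is a 1.13- to 1.32-fold change in the 95% interval. In limma the standard error was 0.05 and the adjusted p = 0.0411. Array 2 was the highest, and the other 3 arrays lay within a narrow band. The probe lies at chr10:30552729-30552788 on the minus strand of build mm9. By mean log2 ratio, Hey2 was in place 130 from the top of the 21173 tested genes.

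The fitted ratio of Hey2 was above 0 in each of 14 other ways of processing, between 0.25 and 0.33. The adjusted p ranged from 0.0157 to 0.343 and was under 0.05 in 3 of them. It was 0.149 without array 1, 0.0984 without array 2, 0.135 without array 3 and 0.0157 without array 4.

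Heyl, which encodes another repressor of this family, had Sox2-Tbx2LOF levels of 13.52, 13.15, 13.37 and 13.29 and control levels of 12.91, 13.15, 12.96 and 13.25. The ranges overlapped between the genotypes. The log2 ratio was 0.60, 0.00, 0.42 and 0.04 on the arrays (mean 0.26 ± 0.29, SD, n = 4; limma SE 0.05, adjusted p = 0.0644). High ratios were seen on the arrays with the Sox2-Tbx2LOF pool in Cy3, and ratios near 0 on those with it in Cy5. The dye term, the shift of the log2 ratio from its mean when the Sox2-Tbx2LOF pool was in Cy5, was -0.24 (limma adjusted p = 0.044). This term absorbs the split between arrays in the fit, and without it the adjusted p for Heyl was 0.965. Over all 14 alternatives the adjusted p ran from 0.0457 to 0.965, and only averaging over tested probes of each gene took it under 0.05. The probe lies at chr4:122926975-122927034 on the plus strand of build mm9.

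Hey1, the third Hey gene, showed the same arrangement of arrays. Its levels were 15.03, 14.83, 15.09 and 14.84 in Sox2-Tbx2LOF and 14.63, 14.85, 14.77 and 14.75 in control pools. Its log2 ratio was 0.40, -0.02, 0.32 and 0.08 (mean 0.19 ± 0.20, SD, n = 4; limma SE 0.05, adjusted p = 0.166). The genotype ranges overlapped, and array 2 was slightly below 0. The dye term of Hey1 was -0.16 (limma adjusted p = 0.094), and without this term the limma adjusted p for Hey1 was 0.9999. The probe lies at chr3:8663432-8663491 on the minus strand of build mm9.

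**Figure D3:**
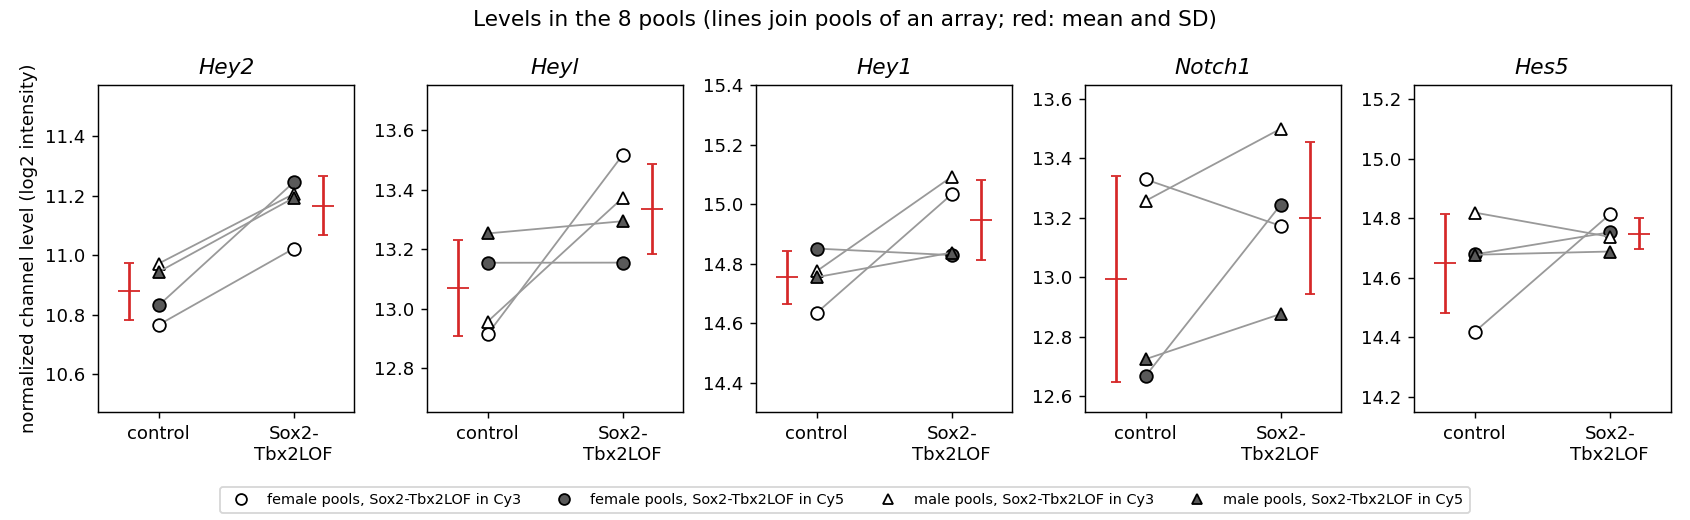
Normalized channel levels in log2 intensity (vertical axes, each spanning the same range) of Hey2, Heyl, Hey1, Notch1 and Hes5 in the 4 control and 4 Sox2-Tbx2LOF pools, with lines joining the pools of an array and red bars for the mean and SD. Hey2 pools are separate between 10.97 and 11.02, and the pools of the other genes overlap.

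The Hes genes, which encode related proteins, had smaller mean ratios. Hes5, a main target of Notch in supporting cells, had levels of 14.81, 14.75, 14.74 and 14.69 in Sox2-Tbx2LOF pools and of 14.42, 14.68, 14.82 and 14.68 in control pools. The log2 ratio was 0.39, 0.07, -0.08 and 0.01 (mean 0.10 ± 0.21, SD, n = 4), with a 95% interval in limma from 0.953- to 1.21-fold. Array 1 alone was high, where the control pool was the lowest of all 8 pools.

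Hes1, another Notch target, had log2 ratios of 0.51, -0.45, 0.12 and -0.28 (mean -0.02 ± 0.43, SD, n = 4). Its sign followed the dye on each array, and the dye term was -0.34 (limma adjusted p = 0.0405). Hes7, best known from the segmentation clock, was split by dye the other way, with ratios of -0.25, 0.19, -0.17 and 0.27 (mean 0.01, dye term 0.22, limma adjusted p = 0.0479). These 3 genes, Hes1, Hes7 and Heyl, were the members with an adjusted p under 0.05 for the dye, which 4.19% of all genes had. Hes6, which encodes a bHLH protein expressed in developing hair cells, was at 0.09 and Hes2 at -0.002.

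Among the receptors, Notch1 had log2 ratios of -0.16, 0.58, 0.24 and 0.15 (mean 0.20 ± 0.30, SD, n = 4; limma SE 0.08, adjusted p = 0.645). Its levels were 13.17, 13.24, 13.50 and 12.88 in Sox2-Tbx2LOF pools and 13.33, 12.67, 13.26 and 12.73 in control pools. The ranges overlapped widely, and the ratio fitted with the dye term ranged from 0.10 without array 2 to 0.31 without array 4. These fits give both dyes the same weight, so their ratio is not the plain mean of the remaining arrays. A second Notch1 probe gave 0.32, 0.02, 0.36 and 0.01 (mean 0.18, limma adjusted p = 0.185). Both probes had a mean above 0, but the array with the lowest ratio at the brighter probe was among the highest at the other. The brighter probe starts at base 5898 of the transcript and the other at base 8221, and the brighter one lies at chr2:26319440-26319499 on the minus strand of build mm9. Notch2, Notch3 and Notch4 were at -0.03, -0.05 and 0.05, and none of them had 4 arrays on 1 side of 0.

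The ligands gave smaller values. Jag1, the ligand of prosensory and supporting cells, was at -0.12, -0.03, 0.09 and -0.07 (mean -0.03 ± 0.09, SD, n = 4), and its 95% interval ran from 0.898- to 1.06-fold. Its levels were 14.31, 14.48, 14.51 and 14.38 in Sox2-Tbx2LOF and 14.43, 14.52, 14.42 and 14.45 in control pools, which overlap almost fully. Jag2 and Dll1, the ligands of nascent hair cells, had means of 0.02 and -0.05, with 95% intervals from 0.937- to 1.09-fold and from 0.878- to 1.07-fold. Dll4 was at 0.04. Dll3, a Delta-like protein that acts inside the cell on Notch signalling, was above 0 on every array with 0.09, 0.02, 0.13 and 0.15 (mean 0.10 ± 0.06, SD, n = 4; limma adjusted p = 0.843). Its second probe gave 0.14 (limma adjusted p = 0.428).

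The fringe genes encode glycosyltransferases that change which ligands a Notch receptor answers to. All 3 had a mean above 0, with 0.08 for Lfng, 0.06 for Mfng and 0.02 for Rfng, and none passed the test. Lfng varied in sign between arrays, at -0.11, 0.24, 0.20 and -0.01 (SD 0.17). Its highest and lowest arrays were those with the 2 female pools of each genotype.

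Receptor cleavage genes were close to 0. The protease gene Adam10 was at 0.03, and the gamma-secretase genes Psen2, Ncstn, Aph1a and Psenen were at -0.005, 0.05, 0.08 and -0.001. Aph1a was the member whose probes differed most. Its second probe was at 0.20 with 0.23, 0.16, 0.51 and -0.10 on the arrays (limma adjusted p = 0.378), which is 0.12 above the brighter probe. Among 10 members with 2 tested probes, the mean had the same sign at both for 9, the exception being Rbpj.

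In the nuclear complex, Rbpj, the DNA-binding factor, was at 0.21, -0.31, 0.15 and -0.18 (mean -0.03 ± 0.25, SD, n = 4), with signs that followed the dye. Its second probe was at 0.08. The co-activator genes Maml1, Maml2 and Maml3 had means of 0.03, 0.10 and -0.10. Maml2 was above 0 on every array with 0.09, 0.17, 0.09 and 0.08 (limma adjusted p = 0.741), and Maml3, the lowest of the 36 members, was below 0 on 3 arrays.

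Nrarp, a feedback inhibitor that Notch itself induces, was at 0.05, Numb at 0.01 and Numbl at 0.05. Numb and its relative are known for holding back Notch in daughter cells. Of the Deltex genes, whose proteins are ubiquitin ligases that bind Notch, Dtx1 had the largest value, with log2 ratios of 0.15, -0.24, 0.53 and -0.02 (mean 0.11 ± 0.33, SD, n = 4; limma SE 0.07, adjusted p = 1.0). Its levels were 12.01, 11.59, 11.95 and 11.64 in Sox2-Tbx2LOF and 11.85, 11.84, 11.42 and 11.66 in control pools and overlapped. Dtx2, Dtx3 and Dtx4 were at -0.003, 0.03 and 0.03.

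**Figure D4:**
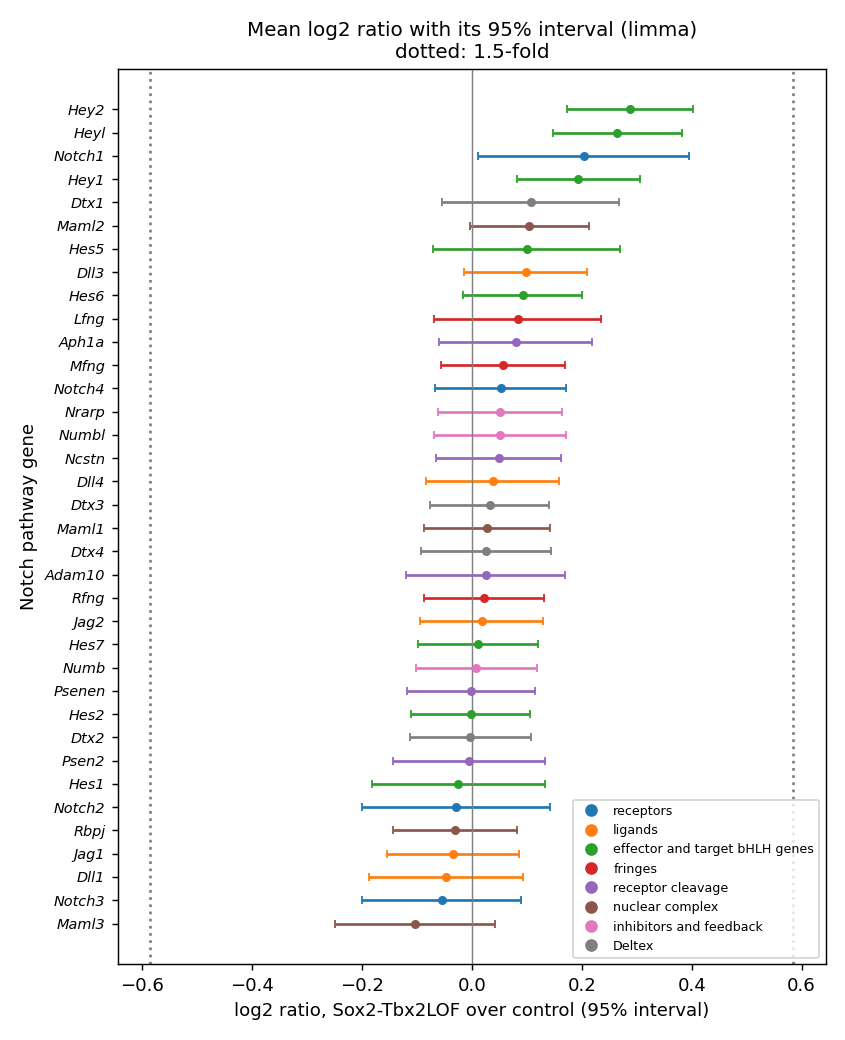
Mean log2 ratio of Sox2-Tbx2LOF over control with its 95% interval from limma (horizontal axis) for the 36 tested Notch pathway genes, sorted by mean and coloured by role. All intervals lie between the dotted lines at 1.5-fold, and those of Hey2, Heyl, Notch1 and Hey1 do not reach 0.

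The precision of the arrays bounds what could have been missed in the average over the cells of a pool. It does not bound a change confined to some of these cells. The interval of every tested member lay inside 1.5-fold in both directions, which was the case for 99.3% of all genes. Over the members the intervals reached from 0.842-fold (Maml3) to 1.32-fold (Hey2), with a median width of 0.12 on either side on the log2 scale. Differences smaller than that were not resolved.

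The sex-sorted pools allowed the effect to be compared between females and males, with 2 arrays each. No member, and none of all 21173 genes (0%), had a limma adjusted p under 0.05 for the sex by genotype term. The smallest limma adjusted p over all genes was 0.99981. With genotype, dye and sex terms fitted on 4 arrays, the test could hardly call any gene, so it does not show that the sexes were alike. At an unadjusted p under 0.05 there was 1 member, Dtx1, against 1.94% of all genes. The mean ratio of Dtx1 was -0.04 in females and 0.26 in males, and its adjusted p was 1.0. Hey2 was at 0.34 in females and 0.24 in males, Heyl at 0.30 and 0.23, and Hey1 at 0.19 and 0.20, so that these 3 genes had means above 0 in both sexes. Among the members, the means of both sexes were above 0 for 13, below 0 for 1 and of opposite sign for 22. These counts were not made over all genes. The level itself, female minus male, had a limma adjusted p under 0.05 for none of the members, against 0.0756% of all genes, and an unadjusted p under 0.05 for none of them either, against 8% of all genes.

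Genes of the pathway outside the 37 were read from a list of 32 ligand-like genes, glycosylation and maturation enzymes, proteases, ubiquitin ligases, co-activators and co-repressors. Of the 31 tested, none had an adjusted p under 0.05 and none an unadjusted p under 0.05 in limma, with 19 means above 0, 12 below and a median of 0.004. They ran from -0.07 for Adam17, a protease, to 0.08 for Cir1, a co-repressor that binds RBPJ. The ubiquitin ligase genes Mib1 and Neurl1a, whose proteins act on ligands, were at -0.02 and 0.04, and the co-activator genes Ep300 and Crebbp at 0.07 and 0.02. The remaining gene of the list, Aph1c, had no probe under that name on the array.

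Among the 29 members with a promoter in the RefSeq table, 6 carried the core GTGGGAA on either strand between 250 bases before and 50 bases after the start, namely Aph1a, Hes5, Hes7, Hey2, Lfng and Psen2. Over promoters, this was 6 of 37 (16.2%), against 6.38% of all 32851 promoters of the table. The shorter TGGGAA, which is part of the core, was in 12 of these 37 (32.4%), against 25.6% of all promoters. The 6 members with the core had log2 ratios from -0.005 to 0.29, and the 23 tested members without it from -0.10 to 0.20. Hey2 and Hes5 each hold 2 cores, and their log2 ratios were 0.29 and 0.10. Whether the core goes with the ratio was not tested. Hes1, Hes2, Hes3, Hey1, Heyl, Mfng, Dtx3 and Dtx4 had no entry in the promoter table.

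Lists of markers of cell types that the pools could hold had medians on either side of 0. The 6 mesenchyme markers had a median log2 ratio of 0.20, with 5 means above 0, 4 of these at an unadjusted limma p under 0.05 and none at an adjusted p under 0.05. Their summed level was 266174 to 286705 intensity units in the Sox2-Tbx2LOF pools and 222492 to 264910 in the control pools, without overlap. Endothelial cells also express Notch1 and Hey genes. Of 8 endothelial markers, 7 had a mean above 0 with a median of 0.04. Their summed levels were 33471 to 34428 against 31435 to 33764 and overlapped. Among 7 supporting cell and prosensory markers, 6 had a mean above 0 with a median of 0.10. Their summed levels were 75626 to 79081 against 72593 to 75925 and overlapped. Sox2, whose locus carries the knock-in in the mutants alone, had the largest mean of this list, 0.23. The 5 pericyte and smooth muscle markers had a median of 0.001. All markers of the mesenchyme, endothelium, supporting cell and pericyte lists were well above background on every array in both genotypes. Markers of melanocytes and blood were on the other side, with none of 4 (median -0.14) and none of 3 tested (median -0.08) above 0. The greater epithelial ridge list had 2 of 5 above 0 (median -0.006), neurons 4 of 5 (median 0.03) and glia 3 of 4 (median 0.01). Of 7 hair cell markers 4 were above 0 (median 0.04), and Otof, a protein of hair cell synapses, fell by 0.40 on the log2 scale (limma adjusted p = 0.01), the one listed marker with an adjusted p under 0.05. The part of these cell types in the values of the Hey genes was not tested.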

How the data were processed

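RNA of 4 Sox2-Tbx2LOF and 4 control pools was hybridised by the authors to 4 dual-colour Agilent mouse arrays and read with Agilent Feature Extraction 10.7.3.1. The deposited scanner files give spot intensity values on a linear scale, not normalized, and a log10 ratio of red over green made by the scanner software. The deposited series matrix holds a score, a fold change with a sign for its direction, whose making is not given in the sources used here. Its direction was settled against the scanner values (r between 0.937 and 0.954 across probes). Each column of it had a median of 0 on the log2 scale.

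Background was corrected with normexp (offset 50) and ratios were normalized by loess with limma 3.58.1 in R 4.3.3, with control spots weighted 0 and spots flagged as outliers left out (3.23% to 3.56%). The spots of a probe were averaged. A probe was tested where more than 0.5 of its spots were well above background on at least 3 arrays in 1 genotype, which held for 28104 of 39429 probes. The log2 ratios of these probes were fitted with lmFit and eBayes with a dye term, and p-values were adjusted by Benjamini-Hochberg over all of them. At this threshold 276 probes were called, 125 higher and 151 lower. Levels are channel values after loess and then Aquantile scaling, which gives the arrays the same distribution of mean brightness. They were not compared between probes. Ratios assume that most genes do not change, and the offset shrinks those of dim probes. The number of arrays limits the precision.

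Sex by genotype was a term in the same fit, and sex differences in level came from a separate-channel fit. The study's methods name an unpaired comparison with Significance Analysis of Microarrays. That software was not run here. Unpaired limma on the 8 channel values was run in its place, as an alternative. Probe positions on build mm9 were taken from the scanner files. Promoters were read from a RefSeq table of build GRCm38.p6, which matched 29 of the 37 members. Scripts were tested on simulated data. The members and lists, and the rule for the members given in full (unadjusted p under 0.05, the 5 largest absolute ratios, or probes of opposite sign with 1 at an unadjusted p under 0.05), were chosen with earlier results of these data known. Other genes are given by role. Hes1, Hes5, Jag1, Lfng, Rbpj, Dll3, Maml2, Hes7 and the second probe of Aph1a were given on every array after their values were seen.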

Additional observations from a re-analysis of the deposited data

Results flagged for a closer look

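Among the 36 tested Notch pathway genes, 1 array stood apart from the other 3 for 3 genes, by the gap to its nearest neighbour as a share of the range (Dixon's ratio at its 95% critical value, which chance passes in about 1 of 20 groups). For Hey2 this was array 2, a female array with the Sox2-Tbx2LOF pool in Cy5, at a log2 ratio of 0.41 with a share of 0.876. Without it the mean of Hey2 was 0.25. For Maml2 it was also array 2, at 0.17 with a share of 0.837. For Hes2 it was array 4, a male array, at 0.074 with a share of 0.886.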

How the results depend on the processing

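The count of Notch pathway genes with an adjusted p under 0.05 was 1 in the reported fit. It was 0 with a normexp offset of 0, plain background subtraction, the scanner software's log ratio, the series matrix, median centring, no filter on dim probes, no dye term, or a fold of at least 1.5 required as well. It was 2 (Heyl and Hey2) when the tested probes of a gene were averaged, a setting with fewer tests to adjust for. Leaving out 1 array gave counts of 0 to 1. Without the pairing of pools within arrays, as unpaired limma on the 8 channel values (no replicate block), the count was 0, and the adjusted p of Hey2 was 0.206. The cause of these differences was not tested. The number of probes called over the whole array ranged from 1 (series matrix) to 450 (without array 2), against 276 as reported, and was 117 without the dye term, 113 unpaired, 416 without array 4, 264 without array 1, 202 without array 3 and 202 without the filter. For the 5 members recomputed one by one (Hey2, Heyl, Hey1, Notch1 and Dtx1), the log2 ratio fitted by limma kept its direction in 14 alternatives. This fitted ratio was 0.25 to 0.33 for Hey2, 0.22 to 0.31 for Heyl and 0.17 to 0.22 for Hey1. For Notch1 it was 0.10 to 0.31 and for Dtx1 0.01 to 0.20. With 1 array left out, the dye term gives both dyes the same weight. The fitted ratio is then not the plain mean of the remaining arrays, whose direction can differ. The median over the members was 0.004 to 0.071, and the count among other pathway genes stayed at 0. For the sex terms, the count of members at an adjusted p under 0.05 was 0 in the 4 alternatives run.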
